A study of Mus musculus with 12 samples.

Results

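The Rab GTPases are the largest branch of the Ras-like small GTPases, and each marks and steers a particular step of vesicle traffic. Rab genes were taken as all entries of the raw count tables whose symbol is Rab followed by a number and at most 1 letter. This gave 59 genes of the 55335 entries in each table. All 59 were protein-coding in the GENCODE annotation of GRCm38 (mm10).

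Bulk RNA-seq was made from mouse small intestinal organoids, epithelial cultures embedded in a basement membrane matrix, in 12 libraries of 4 groups with 3 libraries each. All organoids came from a female Lgr5GFPDTR/+ mouse (line26 wild type), in which 1 allele of the stem cell gene Lgr5 carries GFP with the diphtheria toxin receptor. The RANKL group received 3 µM of the GSK3 inhibitor CHIR99021 and 1.5 mM of the histone deacetylase inhibitor valproic acid in ENR medium for 3 days. It then had 1 day of plain ENR and 6 days of 100 ng/mL RANKL, the cytokine that induces microfold (M) cells. The ENR control group grew in ENR medium (EGF, NOGGIN and R-SPONDIN1) until day 6. Its sample names begin with CVENR, and whether it also had CHIR99021 and valproic acid is not spelled out in the labels. Differences due to RANKL and to this pretreatment therefore cannot be separated, and higher or lower with RANKL below refers to the whole course. The RANKL+CSRM617 group had the RANKL course together with 40 µM CSRM617, a small molecule known to inhibit the transcription factor ONECUT2, and the RANKL II group is the second RANKL set, which shares a count table with it. The 3 libraries of a group are labelled as separate experiments on organoids of 1 line, so p-values measure the spread between experiments and not between animals.

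A Rab protein is switched on when an exchange factor loads it with GTP and switched off when a GTPase activating protein makes it hydrolyse that GTP. A lipid tail added by Rab geranylgeranyl transferase lets it sit on membranes, and GDI proteins extract the inactive form back into the cytosol. On the membrane the active Rab recruits effectors such as motors, tethers and sorting proteins. In intestinal epithelium, Rab11a, Rab8a and Rab25 are known for traffic to the apical, brush-border face. M cells take up particles from the gut lumen and carry them across the epithelium, which is a task of endocytic and transcytotic traffic.

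Total counts per library were 6351155 to 7719157 in RANKL, 5795541 to 7577492 in ENR control, 10225102 to 14041947 in RANKL+CSRM617 and 8669153 to 11241811 in RANKL II. Genes at ribosomal RNA loci took 9.71% to 10.7% of counts in RANKL libraries, against 21.9% to 35.5% in ENR control libraries. They took 15.3% to 15.8% in RANKL+CSRM617 libraries and 6.44% to 6.71% in RANKL II libraries. The epithelial markers Epcam and Cdh1 were abundant in all 12 libraries, and the summed level of 5 immune markers was at most 2.48 CPM in any library. The 5 stromal and endothelial markers summed to 17.4 to 20.45 CPM in RANKL libraries and 11.1 to 13.25 CPM in ENR control libraries. Their sums were 13.2 to 16.9 CPM in RANKL+CSRM617 libraries and 12.65 to 16.4 CPM in RANKL II libraries. Among them Col1a2 had 0 counts throughout. Vwf was called higher with RANKL (16.8 CPM on average, against 8.83 CPM in ENR control) and Pdgfra lower. The M cell markers summed to 859 to 922 CPM in RANKL libraries and 53.5 to 60.2 CPM in ENR control libraries, with 7 of 7 called higher. They summed to 912 to 948 CPM in RANKL+CSRM617 libraries and 850 to 872 CPM in RANKL II libraries, with 4 called higher and 3 lower.

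The promoters of 4 of the 5 Rab genes that rose at least 2-fold with RANKL are shown because these genes carry the largest differences of the family. The windows are RefSeq's on GRCm38.p6, 250 bases before to 50 bases after the start, given 5′ to 3′ on the gene's strand. The motifs searched on both strands were the NF-kB consensus site (RANKL signals through NF-kB), GAGGAAGT (an Ets-type site of the kind Spi-B, the M cell factor, can bind) and ATTGAT (the core bound by Onecut factors). Capitals mark a match.
Rab32, chr10:10558158-10558457, minus strand: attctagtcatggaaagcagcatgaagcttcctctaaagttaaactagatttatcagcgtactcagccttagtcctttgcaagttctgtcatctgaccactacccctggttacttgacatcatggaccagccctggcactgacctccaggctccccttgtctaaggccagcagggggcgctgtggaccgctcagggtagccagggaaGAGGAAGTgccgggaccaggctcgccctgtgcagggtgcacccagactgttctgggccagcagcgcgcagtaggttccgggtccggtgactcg
Rab31, chr17:65772703-65773002, minus strand: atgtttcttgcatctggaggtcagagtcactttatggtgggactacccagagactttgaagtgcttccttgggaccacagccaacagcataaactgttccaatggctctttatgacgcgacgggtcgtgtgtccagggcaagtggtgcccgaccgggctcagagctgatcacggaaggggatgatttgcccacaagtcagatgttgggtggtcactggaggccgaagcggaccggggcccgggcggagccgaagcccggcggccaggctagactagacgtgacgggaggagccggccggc
Rab11a, chr9:64737707-64738006, minus strand: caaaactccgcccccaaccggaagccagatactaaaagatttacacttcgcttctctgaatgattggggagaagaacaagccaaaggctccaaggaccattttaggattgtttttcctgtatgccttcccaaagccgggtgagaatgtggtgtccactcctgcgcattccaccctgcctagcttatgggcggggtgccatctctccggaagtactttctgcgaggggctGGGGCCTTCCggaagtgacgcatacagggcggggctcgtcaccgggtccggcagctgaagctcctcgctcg
Rab15, chr12:76818325-76818624, minus strand, the only one of its 4 windows with a match: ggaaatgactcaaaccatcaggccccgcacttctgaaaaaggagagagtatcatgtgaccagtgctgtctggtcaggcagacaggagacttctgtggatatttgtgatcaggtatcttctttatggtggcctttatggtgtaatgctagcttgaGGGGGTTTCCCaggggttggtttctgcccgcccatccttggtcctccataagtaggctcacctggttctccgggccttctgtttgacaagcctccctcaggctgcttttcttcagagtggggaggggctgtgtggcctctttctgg
The Rab32 window held 1 Ets-type match, this Rab15 window 2 overlapping NF-kB matches and the Rab11a window 1 NF-kB match. The shown Rab15 window lies inside the annotated gene (chr12:76797960-76822908). The Rab15 window nearest the annotated gene start, chr12:76822475-76822774, held no match. The Rab31 window and that of Rab21, the other such gene, held no match. Of 48 Rab genes with a window (60 windows), the NF-kB site was in 3 windows (5%, against 8.46% of all 32851 windows), the Ets-type letters in 2 (3.33%, against 3.2%) and the Onecut core in 1 (1.67%, against 7.54%). These are matches of letters and say nothing of binding.

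Together the Rab genes took 0.195% to 0.204% of all counts in RANKL libraries and 0.0975% to 0.138% in ENR control libraries. Summed after TMM scaling, which corrects for library composition, they came to 1677 to 1763 CPM in RANKL libraries and 1292 to 1399 CPM in ENR control libraries. In the second table the sum was 1536 to 1552 CPM in RANKL+CSRM617 libraries and 1756 to 1765 CPM in RANKL II libraries. In neither table did the groups overlap in this sum, which was not tested.

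Per kilobase of exon, the most abundant Rab genes in RANKL libraries were Rab10, Rab5c, Rab7, Rab1a and Rab1b, at 38.9 ± 0.57, 34.2 ± 1.9, 33.6 ± 1.2, 33.6 ± 1.3 and 32.4 ± 0.99 CPM per kilobase (mean ± SD, n = 3). Of these, the last 4 lay within about their SDs of each other. They serve basolateral and exocytic delivery (Rab10), early endosome fusion (Rab5c), late endosome and lysosome maturation (Rab7) and transport from the ER to the Golgi (Rab1a and Rab1b). In ENR control libraries Rab1b and Rab10 led, at 34.2 ± 2.7 and 33.9 ± 4.3 CPM per kilobase, with Rab25 at 32.5 ± 3.7, and these 3 did not differ beyond their spread. Rab32 stood at rank 9 of the 59 in RANKL libraries, at 17.8 ± 1.1 CPM per kilobase, and at rank 35 in ENR control libraries, at 1.96 ± 0.59. Rab31 stood at rank 23 in RANKL libraries, at 8.65 ± 0.59 CPM per kilobase, and at rank 40 in ENR control libraries, at 1.15 ± 0.25.

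In the comparison of RANKL with ENR control organoids, which asks what the M cell course changes, 45 Rab genes passed the filter on low counts and 14 did not. Of the 45 tested, 22 were higher with RANKL, 5 were lower and 18 were not called at adjusted p under 0.05 (edgeR quasi-likelihood test, Benjamini-Hochberg over all genes). Over all 13570 genes tested, 28.7% were called higher and 28% lower, and 56.7% either way. The median log2 change was 0.32 over the 45 Rab genes and 0.0028 over all genes tested. The 5 Rab genes Rab32, Rab31, Rab21, Rab11a and Rab15, were called at 2-fold or more higher, a call made for 11.1% of all genes tested, and Rab6b, which falls outside the rule for named genes and was picked after its values were seen, was the only one called at 2-fold or more lower, against 6.66%. The groups did not overlap in CPM for 29 of the 45 (64.4%, against 63.3% of all genes tested).

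The log2 changes went with transcript GC content in both tables, so each call is also given from a fit with GC offsets, which take out the trend of each library with GC content. For RANKL against ENR control, Spearman's rho between log2 change and GC content was -0.32 over 13383 genes and -0.48 over the 45 Rab genes, whose GC content ran from 40.1% to 58.4%. These rho values are descriptions across genes of the same 6 libraries. With the offsets, 21 Rab genes were called higher and 4 lower (28% and 25.3% of all genes, 53.3% either way), and 19 and 4 of those had the same call without offsets. The higher calls of Rab14, Rab27b and Rab8b and the lower call of Rab43 were lost, and Rab17 and Rab8a were called higher. In bulk samples, more cells of a type and more RNA per cell cannot be told apart, and markers of several cell types moved with the groups. Enterocyte markers summed to 1743 to 2586 CPM in RANKL libraries and 668 to 743 CPM in ENR control libraries (3 of 4 higher, 1 lower), with 0 of 3 stem cell markers higher and 2 lower. The stem cell markers summed to 401 to 640 CPM in RANKL libraries and 1514 to 1910 CPM in ENR control libraries. Paneth markers (3 of 3 lower) summed to 99.7 to 115 CPM in RANKL libraries and 397 to 678 CPM in ENR control libraries. Tuft markers (2 of 3 higher) summed to 98.4 to 131 CPM in RANKL libraries and 78.5 to 103 CPM in ENR control libraries. Enteroendocrine markers (1 of 2 tested lower) summed to 16.7 to 22.2 CPM in RANKL libraries and 21.7 to 34.1 CPM in ENR control libraries. Goblet markers (1 of 3 higher, 1 lower) summed to 225.2 to 288.5 CPM in RANKL libraries. In ENR control libraries the goblet markers summed to 211.2 to 294.3 CPM. Mitochondrial genes took 2.52% to 2.89% of counts in RANKL libraries and 5.43% to 7.96% in ENR control libraries. The part of these markers and of the mitochondrial and ribosomal RNA shares in the Rab values was not tested.

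**Figure D1:**
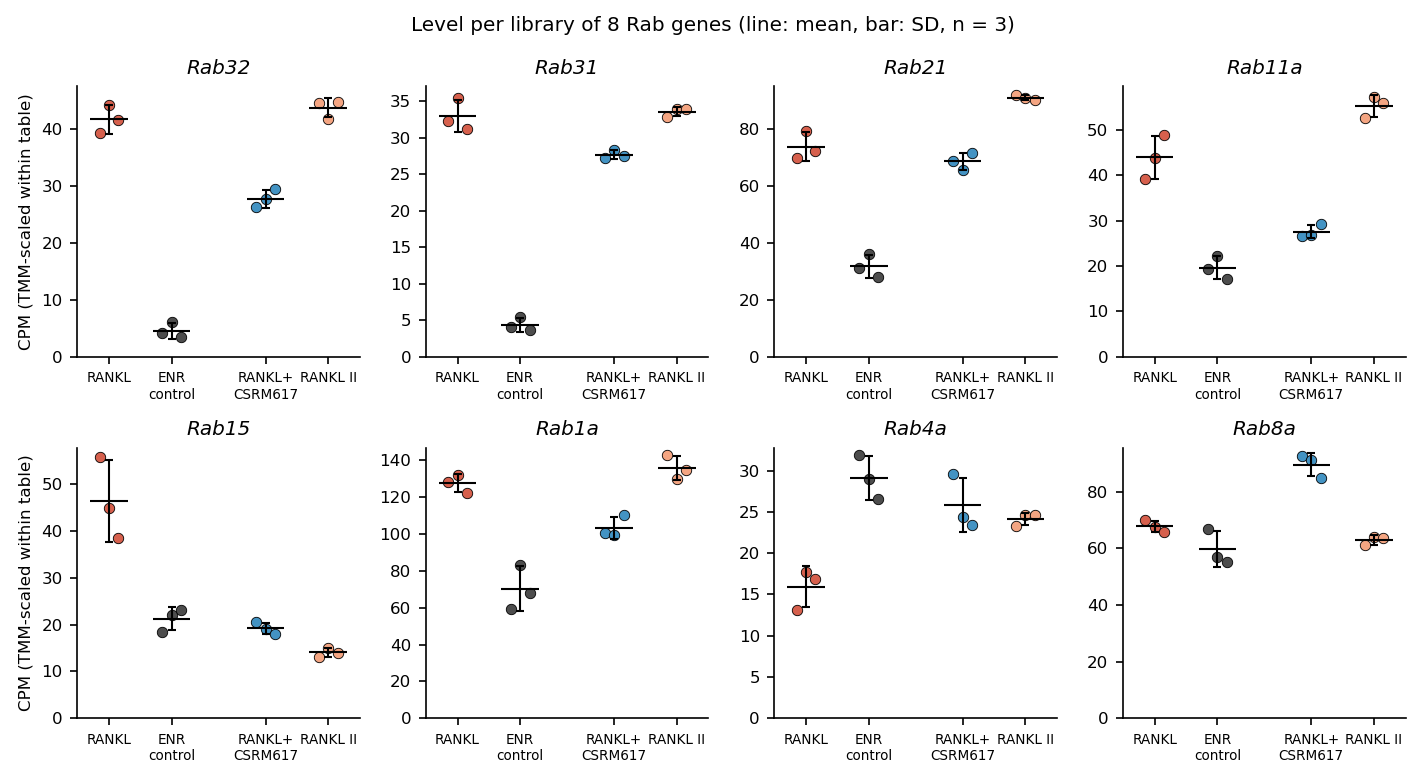
Level of 8 Rab genes in each library, in CPM after TMM scaling within a table on linear axes from 0; points are libraries, lines the mean of 3 and bars the SD. Rab32 lies at 39.3 to 44.3 CPM in RANKL libraries and at 3.43 to 6.13 in ENR control libraries, and Rab15 at 38.5 to 55.7 in RANKL but 13.2 to 15 in RANKL II libraries.

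Among the Rabs of early endosomes and endocytic entry, 8 of 10 rose with RANKL and 1 fell, against 28.7% of all genes higher and 28% lower. With GC offsets 7 were higher and 1 lower. Roles were assigned with earlier results of these data known, so the counts by role here and below are descriptions and were not tested. Rab31 (ENSMUSG00000056515, chr17:65651729-65772752, minus strand), which moves cargo between the trans-Golgi and endosomes, had 32.3, 35.5 and 31.1 CPM in RANKL libraries, against 4.03, 5.46 and 3.66 CPM in ENR control libraries. Every RANKL library was far above every control library, and the log2 change was 2.86 ± 0.16 (SE; adjusted p = 5.32e-10). Rab21 (ENSMUSG00000020132, chr10:115287084-115315594, minus strand), known for integrin endocytosis, had 69.7, 79.3 and 72.5 CPM in RANKL libraries and 31.3, 36.1 and 28.1 CPM in ENR control libraries. The groups were well apart, with a log2 change of 1.20 ± 0.11 (adjusted p = 1.26e-07). Rab22a, the closest relative of Rab31, differed less, at 50.9 to 54.1 CPM in RANKL libraries and 39.3 to 41.7 CPM in ENR control libraries (log2 change 0.39 ± 0.091, adjusted p = 0.0017).

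Rab5a, which drives fusion of early endosomes, had 49.8, 49.3 and 49.4 CPM in RANKL libraries and 35.3, 36 and 39.8 CPM in ENR control libraries. The groups did not overlap and the log2 change was 0.42 ± 0.094 (adjusted p = 0.00121). Its relative Rab5c rose by a log2 change of 0.48 ± 0.088 (adjusted p = 0.000232), and Rab5b did not pass the test (0.14 ± 0.12, adjusted p = 0.355). Rab14, which acts between endosomes and the Golgi, had 125, 129 and 126 CPM in RANKL libraries and 101, 109 and 94.8 CPM in ENR control libraries. All 3 RANKL libraries were above the controls (log2 change 0.32 ± 0.082, adjusted p = 0.00394), but with GC offsets the log2 change was 0.08 (adjusted p = 0.346). Rab20, a Rab of maturing phagosomes in mouse macrophages, had 5.84 to 7.99 CPM in RANKL libraries and 3.88 to 4.99 CPM in ENR control libraries (log2 change 0.55 ± 0.21, adjusted p = 0.0352). Its adjusted p ran from 0.00511 to 0.154 over the alternative fits, so the call of Rab20 is not firm.

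The fast recycling Rabs Rab4a and Rab4b differed in opposite directions. Rab4a (ENSMUSG00000019478, chr8:123805985-123835287) had 13.1, 17.7 and 16.9 CPM in RANKL libraries and 31.9, 29.1 and 26.5 CPM in ENR control libraries. The highest RANKL library was below the lowest control library, and the log2 change was -0.88 ± 0.13 (adjusted p = 4.55e-05), the largest fall among the better expressed Rab genes. Rab4b had 2.81, 1.7 and 2.03 CPM in RANKL libraries and 0.96, 1.33 and 1.14 CPM in ENR control libraries. There was no overlap (log2 change 0.89 ± 0.36, adjusted p = 0.0412), but the call rests on few reads and was lost without 1 library in 5 of 6 cases.

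Among the Rabs of recycling, apical and polarised delivery, 3 of 10 rose with RANKL and none fell, against 28.7% of all genes higher and 28% lower. With GC offsets 4 were higher and 0 lower. Rab11a (ENSMUSG00000004771, chr9:64715299-64737758, minus strand), the Rab of the recycling endosome, had 39.2, 43.9 and 48.8 CPM in RANKL libraries and 19.4, 22.3 and 17.1 CPM in ENR control libraries. All RANKL libraries lay above all controls, with a log2 change of 1.14 ± 0.12 (adjusted p = 1.39e-06). Its relative Rab11b had 46.4, 43.6 and 45.4 CPM in RANKL libraries and 46.6, 40.2 and 46.2 CPM in ENR control libraries, which overlapped (log2 change 0.03 ± 0.097, adjusted p = 0.796). The epithelial member Rab25 had 46.6, 52.3 and 43.3 CPM in RANKL libraries and 53, 61 and 48.9 CPM in ENR control libraries, also overlapping (log2 change -0.20 ± 0.11, adjusted p = 0.114).

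Rab15 (ENSMUSG00000021062, chr12:76797960-76822908, minus strand), a Rab of endocytic recycling best known from neurons, had 55.7, 44.9 and 38.5 CPM in RANKL libraries and 18.4, 22.1 and 23.1 CPM in ENR control libraries. The lowest RANKL library was still above the highest control, although the RANKL libraries spread widely (log2 change 1.13 ± 0.14, adjusted p = 5.77e-06). Rab8a, which serves apical delivery, had 69.9, 67.4 and 65.8 CPM in RANKL libraries and 66.8, 57 and 55.3 CPM in ENR control libraries. These overlapped and were not called (log2 change 0.18 ± 0.093, adjusted p = 0.108), while with GC offsets the log2 change was 0.25 (adjusted p = 0.0172). Rab8b, its relative, was called higher at 0.48 ± 0.14 (adjusted p = 0.00814) and not with GC offsets (0.09, adjusted p = 0.593).

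Rab10, Rab13, Rab17 and Rab35, which serve delivery to the lateral membrane, tight junctions, transcytosis and recycling, were not called. Rab10 had 134 to 138 CPM in RANKL libraries and 106 to 136 CPM in ENR control libraries, where the replicate 2 library alone reached the RANKL range. Without that library the log2 change of Rab10 was 0.30 (adjusted p = 0.000681), against 0.19 ± 0.093 with it (adjusted p = 0.0902). Rab13 had 4.88 to 6.4 CPM in RANKL libraries and 5.71 to 7.49 CPM in ENR control libraries (log2 change -0.16 ± 0.2, adjusted p = 0.534). Rab17, a Rab of transcytosis in polarised epithelium, had 24.4 to 26.1 CPM in RANKL libraries and 19.2 to 25.1 CPM in ENR control libraries (log2 change 0.25 ± 0.12, adjusted p = 0.0969), and it was called higher with GC offsets (0.48, adjusted p = 0.00196).

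Among the Rabs of late endosomes, lysosomes and autophagy, 4 of 7 tested rose with RANKL and 1 fell (57.1% and 14.3%, against 28.7% and 28% of all genes), and the counts with GC offsets were also 4 and 1. Rab32 (ENSMUSG00000019832, chr10:10545002-10558265, minus strand), which helps to build lysosome-related organelles, had 39.3, 44.3 and 41.6 CPM in RANKL libraries, against 4.22, 6.13 and 3.43 CPM in ENR control libraries. It showed the largest log2 change of the family, 3.11 ± 0.16 (8.64-fold, adjusted p = 2.7e-10). Its closest relative Rab38, which shares this role in mouse pigment cells, had 0 counts in all 12 libraries. Rab7, which brings cargo to lysosomes, had 90.8, 87.7 and 84.6 CPM in RANKL libraries and 65.7, 75.2 and 68.8 CPM in ENR control libraries. The groups did not overlap, with a log2 change of 0.32 ± 0.086 (adjusted p = 0.00438).

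Rab9, which returns cargo from late endosomes to the Golgi, was higher in RANKL libraries (log2 change 0.53 ± 0.14, adjusted p = 0.00396). Rab24, a Rab linked to autophagy, had 36.2, 36.2 and 35.1 CPM in RANKL libraries and 50.7, 48.2 and 49.1 CPM in ENR control libraries. The 3 libraries of each group lay close together and apart from the other group (log2 change -0.46 ± 0.092, adjusted p = 0.000499). Its exons overlap Prelid1 on the opposite strand over 1258 bases. The sources used here do not give the strand setting of the counting, so how this overlap affected the Rab24 count is not known.

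Among the Rabs of ER and Golgi traffic, 5 of 11 tested rose with RANKL and 2 fell (45.5% and 18.2%, against 28.7% and 28% of all genes), and with GC offsets 5 were higher and 1 lower. Rab1a, which runs transport from the ER to the Golgi, had 128, 132 and 122 CPM in RANKL libraries and 59.3, 83.4 and 67.9 CPM in ENR control libraries. The groups were well apart (log2 change 0.85 ± 0.11, adjusted p = 6.13e-06), and with GC offsets the log2 change was 0.54. Rab1b, of the same role, had 71.9 to 76.1 CPM in RANKL libraries and 71.2 to 83.6 CPM in ENR control libraries and did not pass (adjusted p = 0.455). Rab6a, which acts in traffic through and back from the Golgi, had 100, 104 and 90 CPM in RANKL libraries and 52, 62.2 and 56.9 CPM in ENR control libraries.

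The Rab6a groups did not overlap, with a log2 change of 0.78 ± 0.094 (adjusted p = 4.36e-06). Part of its exons, 708 bases, overlap Mrpl48 on the opposite strand. Rab30, a Golgi Rab, had 8.98, 8.93 and 9.07 CPM in RANKL libraries and 4.61, 5.86 and 3.88 CPM in ENR control libraries (log2 change 0.87 ± 0.19, adjusted p = 0.00122). Its groups did not overlap. Rab43, of the Golgi, had 3.48, 2.94 and 2.71 CPM in RANKL libraries and 4.61, 4.26 and 5.94 CPM in ENR control libraries. It was called lower (log2 change -0.66 ± 0.24, adjusted p = 0.0271), and the call was lost with GC offsets (adjusted p = 0.118) and without any of 3 libraries in turn. Rab6b, a Golgi Rab best known from brain, had 0.786 to 1.58 CPM in RANKL libraries and 1.73 to 2.97 CPM in ENR control libraries (log2 change -1.11 ± 0.37, adjusted p = 0.018). That call of Rab6b rests on 7 to 14 counts in RANKL libraries and 13 to 15 counts in ENR control libraries, and its adjusted p ran from 0.00507 to 0.0905 over the alternative fits.

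Of the Rabs of regulated secretion, 4 of 9 were tested and 2 rose with RANKL, against 28.7% of all genes, with only 1 higher under GC offsets. Rab27a, which docks secretory granules, had 5.61, 5.76 and 6.63 CPM in RANKL libraries and 4.99, 2.13 and 3.43 CPM in ENR control libraries. The groups were apart by little (log2 change 0.82 ± 0.27, adjusted p = 0.0156), and without the lowest control library, replicate 2, the log2 change was 0.48 (adjusted p = 0.116). Rab27b had 22.7, 24.5 and 20.9 CPM in RANKL libraries and 14.2, 18 and 13.5 CPM in ENR control libraries. It was called higher (log2 change 0.55 ± 0.14, adjusted p = 0.00276) but not with GC offsets (0.12, adjusted p = 0.426), and at 40.1% it has the lowest GC content of the Rab genes tested. Rab3d, the Rab of exocrine granules, had 43.1 to 50.3 CPM in RANKL libraries and 49.6 to 53.4 CPM in ENR control libraries, which overlapped (adjusted p = 0.417).

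Rab40c, which recruits a ubiquitin ligase, had 18.6, 21 and 19.1 CPM in RANKL libraries and 31.5, 25.6 and 31.3 CPM in ENR control libraries. The ranges were separate and the log2 change was -0.57 ± 0.12 (adjusted p = 0.000822). Rab23 and Rab28, which act at the cilium, were not called.

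**Figure D2:**
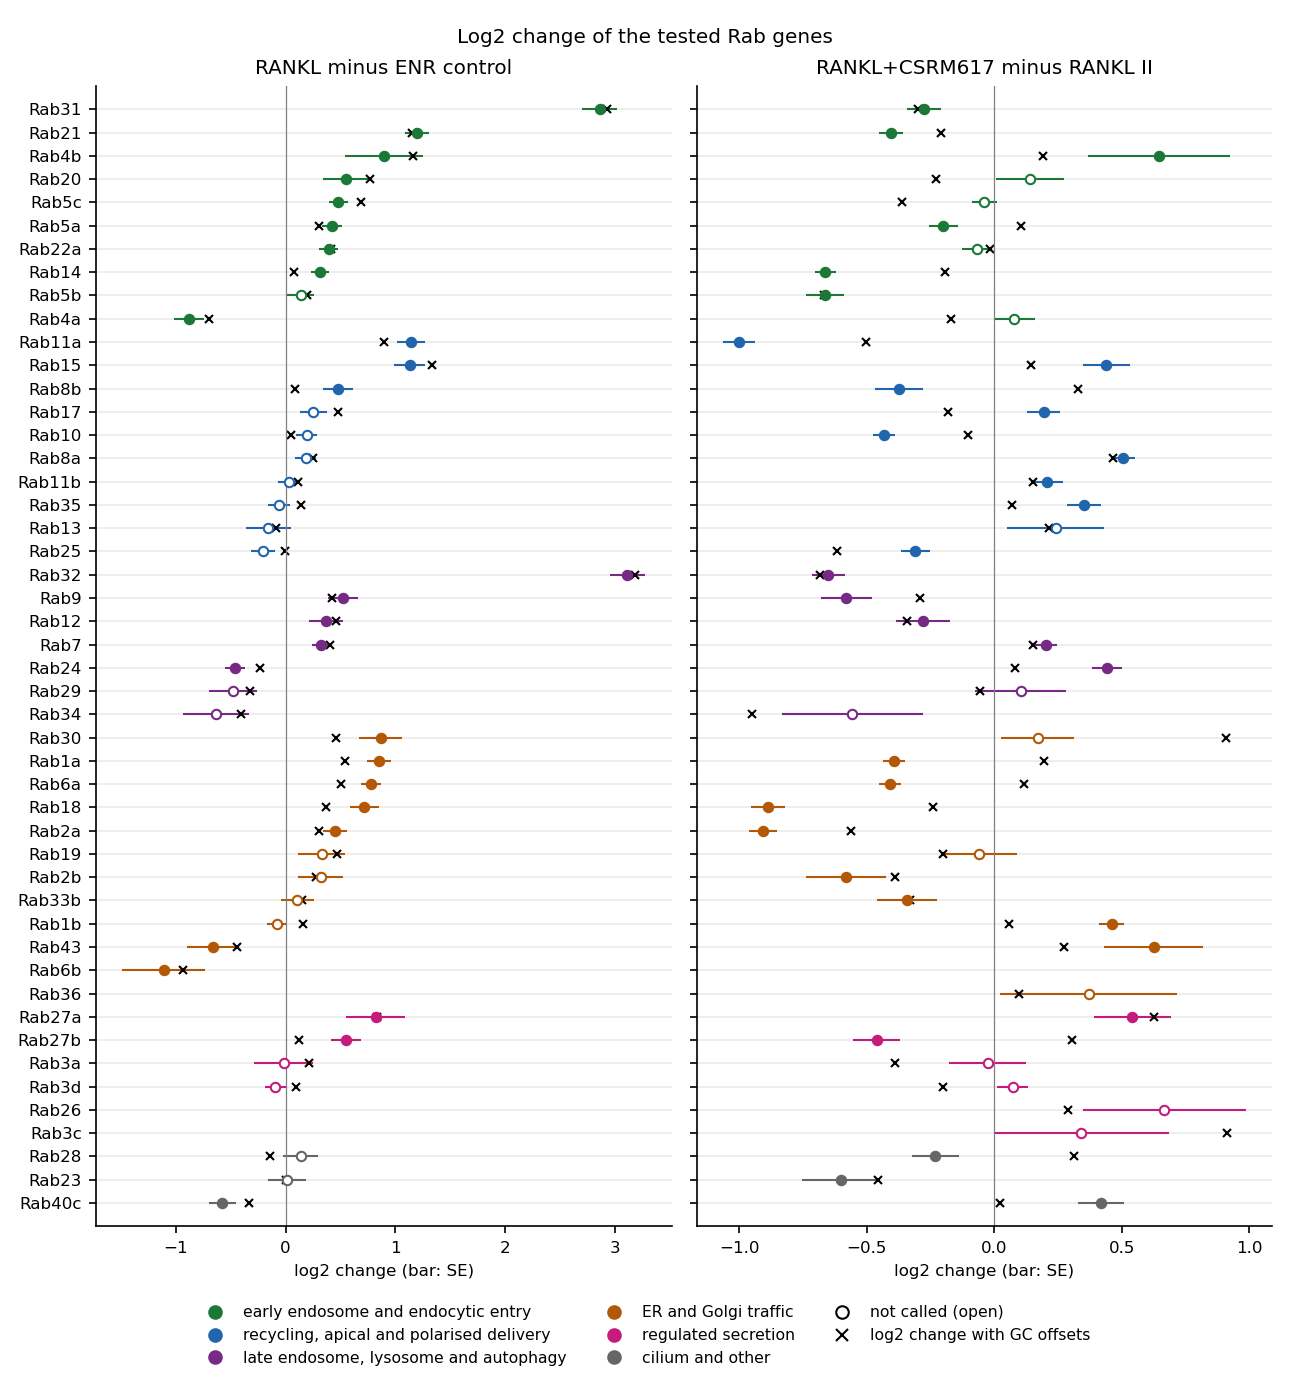
Log2 change of every tested Rab gene for RANKL minus ENR control (left) and RANKL+CSRM617 minus RANKL II (right; the horizontal scales differ), grouped by role; circles with SE bars are the edgeR estimates, filled where called, and crosses the estimates with GC offsets. Rab32 and Rab31 stand at 3.11 and 2.86 on the left, and Rab11a is lowest on the right at -1.0.

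In the comparison of RANKL+CSRM617 with RANKL II, which asks what the ONECUT2 inhibitor changes in the M cell course, 47 Rab genes were tested. Of these, 12 were higher with CSRM617, 21 were lower and 14 were not called. Over all 14167 genes tested, 35.2% were called higher and 36.2% lower, and 71.4% either way. The median log2 change was -0.06 over the 47 Rab genes and -0.02 over all genes tested. Changes were small: Rab11a was the only Rab gene called with a 2-fold or larger fall, against 8.18% of all genes, and none was called at 2-fold or more higher, against 4.92%. The groups did not overlap for 33 of the 47 (70.2%, against 73.1% of all genes tested).

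GC content went with the log2 change more closely here, with a Spearman's rho of 0.58 over 13964 genes and 0.59 over the 47 Rab genes. With GC offsets 11 Rab genes were called higher and 21 lower (32.3% and 31.2% of all genes, 63.5% either way), but 4 and 15 of these had the same call without offsets. Rab11b, Rab27a, Rab7 and Rab8a were higher in both fits. Rab10, Rab11a, Rab12, Rab14, Rab18, Rab21, Rab23, Rab25, Rab2a, Rab2b, Rab31, Rab32, Rab33b, Rab5b and Rab9 were lower in both. The 5 genes Rab1a, Rab27b, Rab28, Rab6a and Rab8b, called lower, were called higher with the offsets, and Rab17 went the other way. Of the 7 M cell markers, 3 were called higher and 2 lower with the offsets, against 4 and 3 without them. Among these, Ccl20 turned from lower (-0.38) to higher (0.45). The cause of the GC trend was not tested. The summed enterocyte markers, at 6197 to 6344 CPM in RANKL+CSRM617 libraries and 2484 to 2533 CPM in RANKL II libraries, moved with the groups too (4 of 4 higher). So did Paneth markers (3 of 3 higher), at 509 to 534 CPM in RANKL+CSRM617 libraries and 146 to 149 CPM in RANKL II libraries. Enteroendocrine markers (2 of 2 tested higher) summed to 39.6 to 49.9 CPM in RANKL+CSRM617 libraries and 16.2 to 17.9 CPM in RANKL II libraries. Tuft markers (3 of 3 higher) summed to 80.5 to 84.1 CPM in RANKL+CSRM617 libraries and 52.3 to 57.3 CPM in RANKL II libraries. Goblet markers (2 of 3 higher, 1 lower) summed to 475.5 to 492.8 CPM in RANKL+CSRM617 libraries and 366.4 to 383.1 CPM in RANKL II libraries. Stem cell markers (2 of 3 higher, 1 lower) summed to 94.1 to 94.7 CPM in RANKL+CSRM617 libraries and 76.3 to 78.5 CPM in RANKL II libraries. Mitochondrial genes took 8.61% to 11.04% of counts in RANKL+CSRM617 libraries and 6.04% to 6.11% in RANKL II libraries. The part of these markers and shares in the Rab values was not tested.

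**Figure D3:**
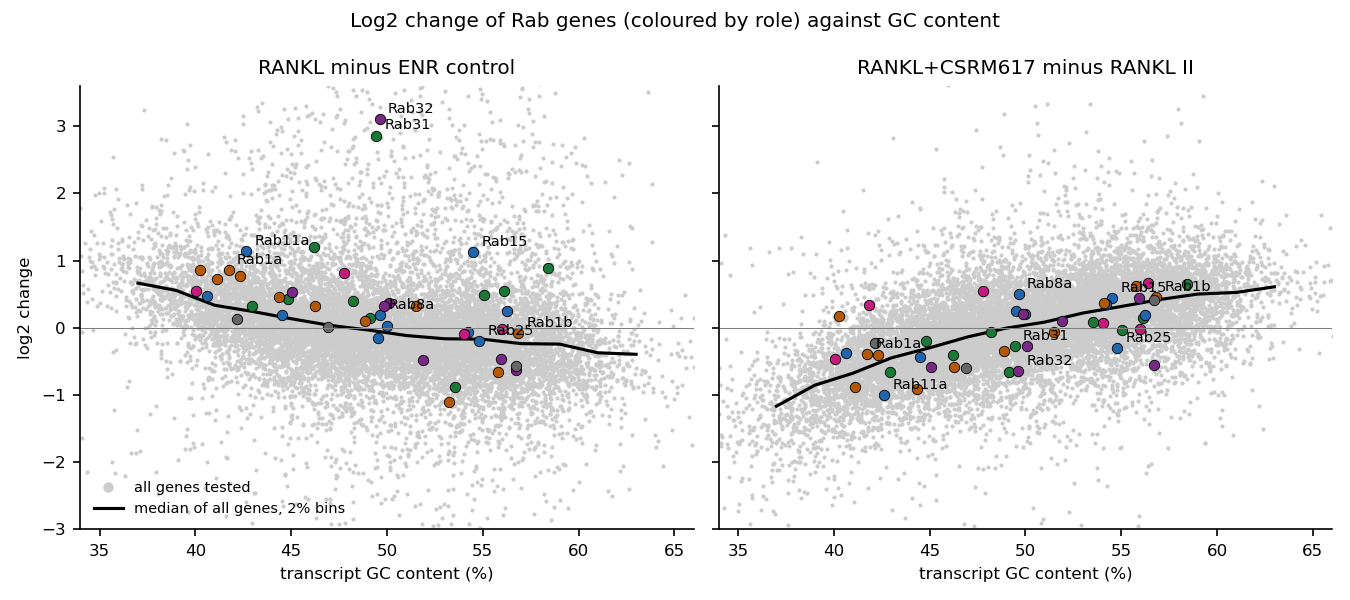
Log2 change against transcript GC content for all genes tested (grey; genes beyond the axis limits are not drawn), their median in 2% bins (black line) and the Rab genes (coloured by role as in the plot of log2 changes), for RANKL minus ENR control (left) and RANKL+CSRM617 minus RANKL II (right). The median line falls with GC content on the left and rises on the right; Rab32 and Rab31, near 49.6% and 49.4% GC, lie far above it on the left.

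Among recycling and apical Rabs, 5 of 10 rose with CSRM617 and 4 fell, against 35.2% of all genes higher and 36.2% lower. With GC offsets 3 were higher and 4 lower. Rab11a had 26.6, 26.9 and 29.2 CPM in RANKL+CSRM617 libraries and 52.6, 57.2 and 56 CPM in RANKL II libraries. The groups were far apart, with a log2 change of -1.0 ± 0.063 (adjusted p = 2.47e-18), and with GC offsets it was -0.50 ± 0.062 (adjusted p = 3.22e-15). Rab11b had 44, 44.8 and 46.1 CPM in RANKL+CSRM617 libraries and 40.1, 36.3 and 40.4 CPM in RANKL II libraries. It was higher by a small amount without overlap (log2 change 0.21 ± 0.061, adjusted p = 0.00262).

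Rab25 had 41.8, 44.3 and 41.9 CPM in RANKL+CSRM617 libraries and 52.1, 55.6 and 51.3 CPM in RANKL II libraries. The groups did not overlap (log2 change -0.31 ± 0.058, adjusted p = 8.94e-06), and the change was larger with GC offsets, at -0.62. Rab8a had 92.4, 91.2 and 84.9 CPM in RANKL+CSRM617 libraries and 61, 63.9 and 63.8 CPM in RANKL II libraries. All CSRM617 libraries were above all RANKL II libraries, with a log2 change of 0.51 ± 0.049 (adjusted p = 1.55e-12) and 0.47 with GC offsets. Rab8b fell, at 14.1 to 15.2 CPM in RANKL+CSRM617 libraries and 17.9 to 21.9 CPM in RANKL II libraries (log2 change -0.38 ± 0.094, adjusted p = 0.000504), and was called higher with GC offsets (0.33, adjusted p = 0.00084).

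Rab10 had 75.8, 74.6 and 77 CPM in RANKL+CSRM617 libraries and 106, 102 and 99.7 CPM in RANKL II libraries. The 2 ranges were apart (log2 change -0.43 ± 0.044, adjusted p = 8.1e-12), and with GC offsets the log2 change was -0.10 (adjusted p = 0.0213). Rab17 had 46.1, 41.1 and 41.4 CPM in RANKL+CSRM617 libraries and 37.9, 39.6 and 34.8 CPM in RANKL II libraries. It was called higher (0.19 ± 0.065, adjusted p = 0.00727) and, with GC offsets, lower (-0.18, adjusted p = 0.00595), so its direction differed between the 2 fits.

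Rab15 and Rab35 were called higher with CSRM617 and neither was called with GC offsets. Rab15 had 20.4, 19.1 and 18 CPM in RANKL+CSRM617 libraries and 13.2, 15 and 14 CPM in RANKL II libraries. The groups did not overlap (log2 change 0.44 ± 0.093, adjusted p = 5.63e-05; with GC offsets 0.14, adjusted p = 0.171). Rab35, which recycles cargo to the plasma membrane, had 38.6, 39.6 and 38.1 CPM in RANKL+CSRM617 libraries and 30.4, 28.6 and 31.8 CPM in RANKL II libraries (log2 change 0.35 ± 0.066, adjusted p = 7.66e-06). Rab13 was not called, at 3.68 to 5.81 CPM in RANKL+CSRM617 libraries and 3.28 to 4.43 CPM in RANKL II libraries (adjusted p = 0.255).

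Among early endosome and entry Rabs, 1 of 10 rose with CSRM617 and 5 fell, against 35.2% of all genes higher and 36.2% lower. With GC offsets 0 were higher and 6 lower. Rab14 had 82.5, 88.7 and 92.4 CPM in RANKL+CSRM617 libraries and 140, 137 and 141 CPM in RANKL II libraries. The groups were far apart (log2 change -0.66 ± 0.042, adjusted p = 2.03e-18; with GC offsets -0.19). Rab5b had 28.8, 29.8 and 25.3 CPM in RANKL+CSRM617 libraries and 38.9, 47.4 and 46 CPM in RANKL II libraries. It too did not overlap, and its log2 change of -0.66 ± 0.073 (adjusted p = 1.55e-10) was -0.67 with GC offsets.

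Rab21 had 68.9, 65.6 and 71.5 CPM in RANKL+CSRM617 libraries and 91.9, 91 and 90.3 CPM in RANKL II libraries (log2 change -0.41 ± 0.047, adjusted p = 2.27e-10). Rab31 had 27.3, 28.3 and 27.5 CPM in RANKL+CSRM617 libraries and 32.8, 34 and 33.9 CPM in RANKL II libraries (log2 change -0.28 ± 0.068, adjusted p = 0.000363). In neither gene did the groups overlap, and both remained lower with GC offsets, at -0.21 and -0.30. Rab5a had 47.4, 44.6 and 50.3 CPM in RANKL+CSRM617 libraries and 53.8, 55.2 and 54.5 CPM in RANKL II libraries (log2 change -0.20 ± 0.057, adjusted p = 0.00199), and its sign turned with GC offsets (0.11, adjusted p = 0.0813). Rab4a, which fell with RANKL, was not called here (log2 change 0.08 ± 0.081, adjusted p = 0.388), and with GC offsets it was lower (-0.17, adjusted p = 0.041).

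Among late endosome and lysosome Rabs, 2 of 7 tested rose with CSRM617 and 3 fell, and these 28.6% and 42.9% are near the 35.2% and 36.2% of all genes. With GC offsets 1 was higher and 4 lower. Rab32 had 26.3, 27.7 and 29.4 CPM in RANKL+CSRM617 libraries and 44.7, 41.8 and 44.9 CPM in RANKL II libraries. There was no overlap, with a log2 change of -0.65 ± 0.066 (adjusted p = 6.77e-12) and -0.68 with GC offsets. Rab9 had 15, 15 and 11.3 CPM in RANKL+CSRM617 libraries and 19, 21.2 and 21 CPM in RANKL II libraries (log2 change -0.58 ± 0.099, adjusted p = 1.58e-06). Rab7 had 109, 110 and 101 CPM in RANKL+CSRM617 libraries and 89.7, 96.4 and 91.9 CPM in RANKL II libraries.

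The Rab7 groups did not overlap and the log2 change was 0.20 ± 0.044 (adjusted p = 7.18e-05). Rab24 had 49.8, 51.8 and 51.6 CPM in RANKL+CSRM617 libraries and 38, 37.3 and 37.7 CPM in RANKL II libraries (log2 change 0.44 ± 0.059, adjusted p = 8.65e-09). With GC offsets Rab24 was not called (0.08, adjusted p = 0.226).

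Among ER and Golgi Rabs, 2 of 11 tested rose with CSRM617 and 6 fell (18.2% and 54.5%, against 35.2% and 36.2% of all genes). The offsets gave 3 higher and 4 lower calls and a median log2 change of 0.06, against -0.34 without them, so the lean to lower calls did not hold there. Rab2a, which acts between the ER and the Golgi, had 37.9, 36.1 and 37 CPM in RANKL+CSRM617 libraries and 71, 70 and 67.3 CPM in RANKL II libraries. Both groups were tight and far apart (log2 change -0.91 ± 0.056, adjusted p = 1.03e-18; with GC offsets -0.56). Rab18, known from lipid droplets and the ER, had 31.8, 28 and 32.8 CPM in RANKL+CSRM617 libraries and 53.8, 55.4 and 61.1 CPM in RANKL II libraries. It did not overlap (log2 change -0.89 ± 0.065, adjusted p = 4.89e-16), and the change was smaller with GC offsets, at -0.24 (adjusted p = 0.00015).

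Rab2b had 3.9, 4.64 and 4.76 CPM in RANKL+CSRM617 libraries and 6.22, 6.08 and 7.61 CPM in RANKL II libraries (log2 change -0.58 ± 0.16, adjusted p = 0.00106). Its exons overlap Tox4 and Gm43766 on the opposite strand over 2664 bases, and how this affected the Rab2b count is not known. Rab1a had 100, 99.4 and 110 CPM in RANKL+CSRM617 libraries and 143, 130 and 135 CPM in RANKL II libraries, without overlap (log2 change -0.39 ± 0.043, adjusted p = 6.14e-11). With GC offsets its log2 change was 0.19 (adjusted p = 1.92e-07), so no direction can be given for Rab1a. Rab1b had 99.2, 99.4 and 87.2 CPM in RANKL+CSRM617 libraries and 71.3, 67.1 and 69 CPM in RANKL II libraries (log2 change 0.46 ± 0.05, adjusted p = 5.16e-11; with GC offsets 0.06, adjusted p = 0.223). Rab43 had 4.87, 3.99 and 4.36 CPM in RANKL+CSRM617 libraries and 3.32, 2.68 and 2.56 CPM in RANKL II libraries (log2 change 0.62 ± 0.19, adjusted p = 0.00385; with GC offsets 0.27, adjusted p = 0.226).

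Among secretory Rabs, 1 of 6 tested rose with CSRM617 and 1 fell, against 35.2% and 36.2% of all genes, and with GC offsets 3 were higher and 2 lower. Rab27a had 6.38, 7.17 and 6.94 CPM in RANKL+CSRM617 libraries and 5.08, 4.84 and 4.33 CPM in RANKL II libraries. It was higher without overlap (log2 change 0.54 ± 0.15, adjusted p = 0.00149; with GC offsets 0.63). Rab27b had 18.1, 18.8 and 21.1 CPM in RANKL+CSRM617 libraries and 23.2, 31.6 and 25.6 CPM in RANKL II libraries. It was called lower (log2 change -0.46 ± 0.092, adjusted p = 4.25e-05) and, with GC offsets, higher (0.30, adjusted p = 0.000347). Rab3d was not called (log2 change 0.07 ± 0.06, adjusted p = 0.285), and with GC offsets it was lower (-0.20, adjusted p = 0.00138).

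Of the cilium and other Rabs, Rab23, which acts at the cilium, was lower in both fits, at 5.19, 4.07 and 5.57 CPM in RANKL+CSRM617 libraries and 6.84, 8.76 and 6.97 CPM in RANKL II libraries (log2 change -0.60 ± 0.15, adjusted p = 0.000599). Rab40c had 21.9, 26.1 and 21 CPM in RANKL+CSRM617 libraries and 17.5, 18.2 and 16.3 CPM in RANKL II libraries. It was called higher (log2 change 0.42 ± 0.09, adjusted p = 7.09e-05) but not with GC offsets (0.02, adjusted p = 0.822).

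The 2 comparisons share no library, so their calls can be set against each other. Of the 44 Rab genes tested in both, 14 were higher with RANKL and lower with CSRM617, which is 63.6% of the 22 higher with RANKL and 66.7% of the 21 lower with CSRM617. Over all 13263 genes tested in both, the same pair of calls made up 54% of those higher with RANKL and 42.1% of those lower with CSRM617. With GC offsets the Rab count was 10 (47.6% of each list of 21), against 39.8% and 35% over all genes. These 10 were Rab11a, Rab12, Rab17, Rab18, Rab21, Rab2a, Rab31, Rab32, Rab5c and Rab9. All but Rab17 and Rab5c were also among the 14 without offsets. No test of these overlaps was made.

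**Figure D4:**
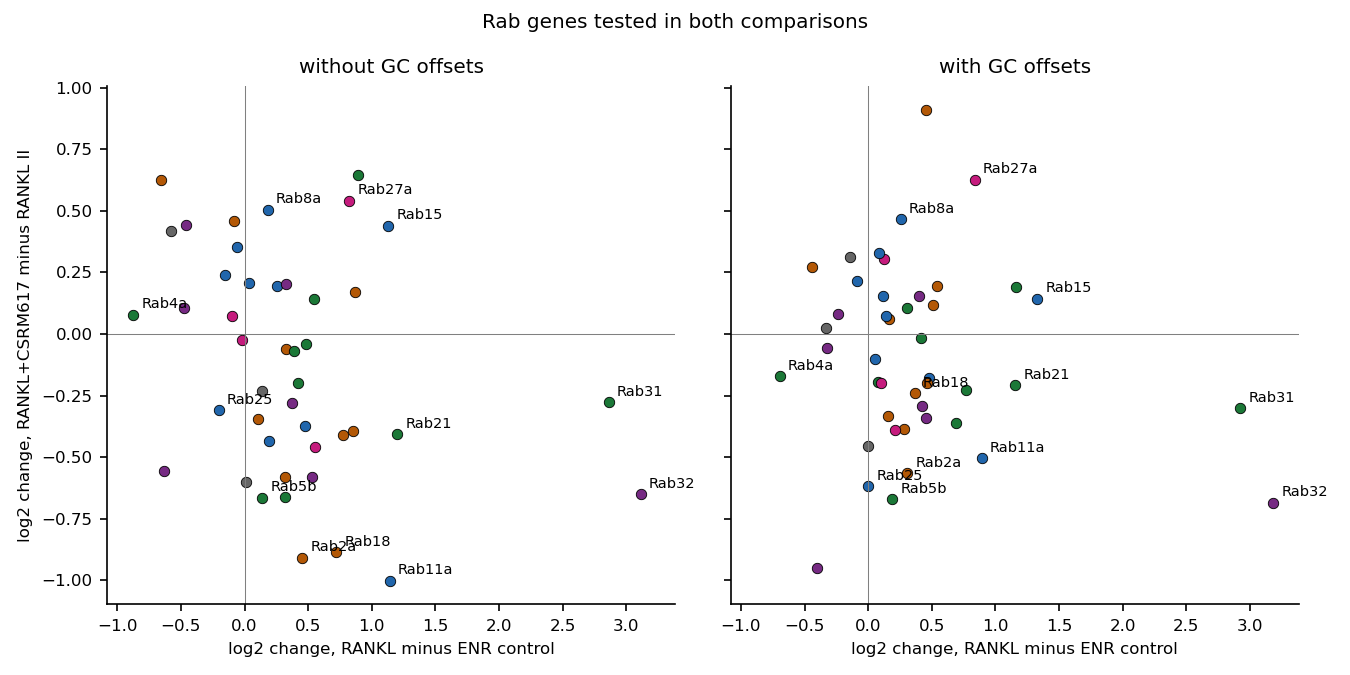
Log2 change of the 44 Rab genes tested in both comparisons, RANKL minus ENR control on the horizontal axis and RANKL+CSRM617 minus RANKL II on the vertical axis, without (left) and with GC offsets (right); colours are roles as in the plot of log2 changes. Rab32, Rab31, Rab21 and Rab11a lie at the lower right in both panels, while Rab27a and Rab15 lie in the upper right.

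The RANKL and RANKL II sets had the same labelled treatment but stand in separate tables with separate normalization, so their levels are only set side by side. Of 44 genes, 34 were within 1.25-fold of each other, among them Rab32 at 43.8 ± 1.7 CPM in RANKL II and 41.7 ± 2.5 CPM in RANKL, and Rab31 at 33.6 ± 0.63 CPM in RANKL II and 33 ± 2.2 CPM in RANKL. Rab15 and Rab4a differed by over 1.5-fold. Rab15 was at 14.1 ± 0.94 CPM in RANKL II and 46.3 ± 8.7 CPM in RANKL, so its RANKL II level was below that of ENR control (21.2 ± 2.5 CPM). Rab4a was at 24.2 ± 0.75 CPM in RANKL II, 15.9 ± 2.5 CPM in RANKL and 29.1 ± 2.7 CPM in ENR control. The sets also differed outside the Rab genes. Stem cell markers summed to 401 to 640 CPM in RANKL and 76.3 to 78.5 CPM in RANKL II libraries. Mitochondrial genes took 2.52% to 2.89% of counts in RANKL and 6.04% to 6.11% in RANKL II libraries. M cell markers were closer, at 859 to 922 CPM in RANKL and 850 to 872 CPM in RANKL II libraries. The cause of these differences between the RANKL sets was not tested.

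Ratios of related Rab genes within a library do not depend on the scaling of that library, but they do carry any GC trend where the pair differ in GC content. The log2 ratio of Rab11a to Rab11b counts was -0.04 ± 0.18 in RANKL libraries and -1.18 ± 0.29 in ENR control libraries (SD, n = 3). It was -0.71 ± 0.042 in RANKL+CSRM617 libraries and 0.51 ± 0.14 in RANKL II libraries, so the groups were apart in both tables. The pair has 42.6% and 50% GC.

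The log2 ratio of Rab25 to Rab11a was 0.11 ± 0.24 in RANKL libraries and 1.47 ± 0.033 in ENR control libraries, and 0.63 ± 0.1 in RANKL+CSRM617 libraries and -0.06 ± 0.059 in RANKL II libraries. Rab25 counts thus outnumbered Rab11a counts most in ENR control. This pair has 54.8% and 42.6% GC. With GC offsets, the log2 changes of Rab25 and Rab11a were -0.0027 and 0.89 with RANKL. With CSRM617 they were -0.62 and -0.50, so the higher ratio with CSRM617 did not hold there. The log2 ratio of Rab22a to Rab31, which are close in GC content (48.2% and 49.4%), was 0.68 ± 0.081 in RANKL libraries and 3.19 ± 0.3 in ENR control libraries. It was 0.85 ± 0.030 in RANKL+CSRM617 libraries and 0.64 ± 0.13 in RANKL II libraries, again without overlap. The log2 ratio of Rab1a to Rab1b, at 41.7% and 56.8% GC, was 0.79 ± 0.073 in RANKL libraries and -0.16 ± 0.21 in ENR control libraries, and 0.12 ± 0.19 in RANKL+CSRM617 libraries and 0.97 ± 0.024 in RANKL II libraries. With GC offsets, the log2 changes of Rab1a and Rab1b were 0.54 and 0.16 with RANKL. With CSRM617 they were 0.19 and 0.06, so the lower ratio with CSRM617 did not hold there.

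For Rab8a over Rab8b, the log2 ratio was 2.59 ± 0.12 in RANKL+CSRM617 libraries and 1.70 ± 0.15 in RANKL II libraries, while RANKL (1.64 ± 0.14) and ENR control libraries (1.96 ± 0.24) overlapped. This pair has 49.65% and 40.6% GC, and with GC offsets their log2 changes with CSRM617 lay closer, at 0.47 and 0.33. For Rab27b over Rab27a the log2 ratio was 1.49 ± 0.1 in RANKL+CSRM617 libraries and 2.48 ± 0.26 in RANKL II libraries, and it overlapped between RANKL (1.91 ± 0.23) and ENR control libraries (2.16 ± 0.8). Here the GC contents are 40.05% and 47.8%, and with GC offsets the log2 changes with CSRM617 were 0.30 and 0.63.

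**Figure D5:**
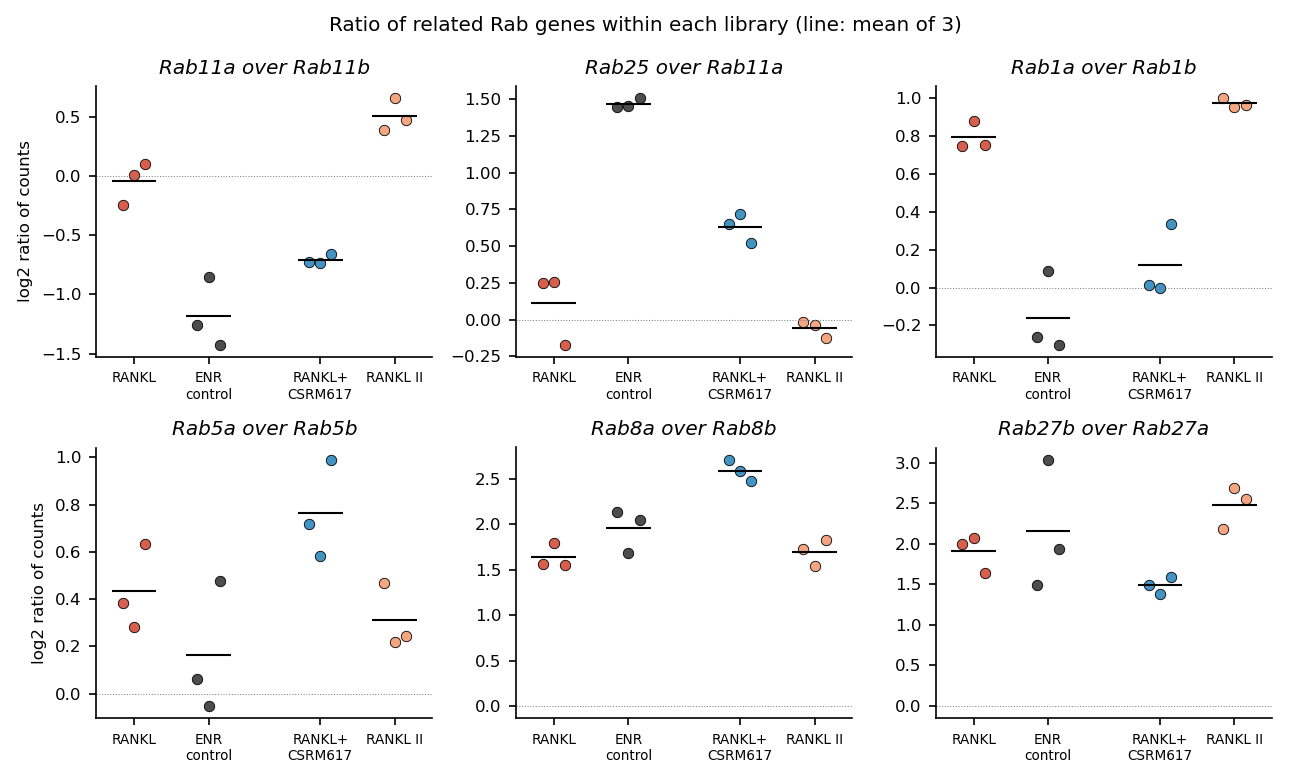
Log2 ratio of the counts of 6 pairs of related Rab genes in each library (points) with the mean of 3 (line), for RANKL, ENR control, RANKL+CSRM617 and RANKL II; vertical scales differ between pairs. Rab11a over Rab11b is higher in RANKL than in ENR control and lower in RANKL+CSRM617 than in RANKL II, without overlap.

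Of 133 Rab regulators and effectors on a list of exchange factors, GTPase activating proteins, prenylation and GDI genes and effectors, 121 were tested in each comparison. With RANKL 30 were higher and 37 lower, with a median log2 change of -0.05, against 28.7%, 28% and 0.0028 over all genes. With CSRM617 69 were higher and 28 lower, with a median of 0.25, against 35.2%, 36.2% and -0.02 over all genes. With GC offsets these counts were 32 and 35 with RANKL and 68 and 18 with CSRM617.

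The counts by class stand against the same shares of all genes, 28.7% higher and 28% lower with RANKL and 35.2% higher and 36.2% lower with CSRM617. Of 33 GTPase activating proteins, 4 rose and 14 fell with RANKL (5 and 14 with GC offsets), while 20 rose and 7 fell with CSRM617 (19 and 3 with offsets). Of 34 exchange factors, 10 rose and 10 fell with RANKL (9 and 11 with offsets), and 17 rose and 8 fell with CSRM617 (17 and 6). Of 46 effectors, 13 rose and 12 fell with RANKL (15 and 9 with offsets), and 31 rose and 7 fell with CSRM617 (32 and 3). Of 8 prenylation and GDI genes, 3 rose and 1 fell with RANKL (3 and 1 with offsets), and 1 rose and 6 fell with CSRM617 (0 and 6).

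With RANKL, the smallest p-values among higher regulators were those of Rin2, an exchange factor for Rab5 (127, 140 and 143 CPM in RANKL libraries, 70.1, 65.4 and 63.3 CPM in ENR control libraries), Dennd6a, an exchange factor, Tbc1d8b, a GTPase activating protein, and Rab11fip4, an effector of Rab11. The groups of Rin2 were far apart (log2 change 1.04 ± 0.086, adjusted p = 5.92e-08), and the others had log2 changes of 1.10, 1.17 and 1.40. Among lower ones they were those of the GTPase activating protein Tbc1d9 (43.4, 44 and 44.4 CPM in RANKL libraries, 113, 115 and 118 CPM in ENR control libraries), the motor Myo5c, the GTPase activating protein Tbc1d4 and the Rab5 effector Appl2. Their log2 changes were -1.39 ± 0.081 (adjusted p = 9.71e-10), -1.29, -1.03 and -0.89.

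With CSRM617, the higher ones included Ehbp1l1, an effector of Rab8 (241, 234 and 226 CPM in RANKL+CSRM617 libraries, 98, 90.1 and 88.1 CPM in RANKL II libraries), Optn, another effector of Rab8 (107, 109 and 104 CPM in RANKL+CSRM617 libraries, 40, 38.1 and 40.1 CPM in RANKL II libraries), and Myo5b, the motor that carries Rab11a and Rab8a vesicles. Their log2 changes were 1.35 ± 0.039 (adjusted p = 1.99e-30), 1.43 ± 0.05 (adjusted p = 1.87e-27) and 0.76, and each was also called higher with GC offsets. The lower ones were Chml, a Rab escort protein (31.8, 32.6 and 36.5 CPM in RANKL+CSRM617 libraries, 109, 96.7 and 106 CPM in RANKL II libraries), Gdi2, a GDI, Ric1, part of an exchange factor for Rab6, and Appl1, an effector of Rab5. Their log2 changes were -1.62 ± 0.057 (adjusted p = 2.32e-27), -0.55, -0.47 and -1.02, and all 4 were also lower with GC offsets.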

How the data were processed

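RNA of 12 organoid libraries was read, per the labels, as 42-bp pairs after ribosomal RNA depletion from 1 µg of total RNA. The authors deposited 2 tables of raw counts per gene symbol, 1 per comparison, made with STAR and HTSeq 0.13.5 on mm10 (GRCm38) per the submitters' processing notes, which also name DESeq2 1.34.0. They also deposited 2 normalized tables, whose values are on a log2 scale as the values show; the exact transformation is not stated, and these served only as an alternative with limma 3.58.1. The strand setting and annotation of the counting are not stated.

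Each table was fitted on its own with edgeR 4.0.16 (R 4.3.3; robust quasi-likelihood test, TMM factors, filterByExpr, no covariate) over all genes, with adjusted p under 0.05 by Benjamini-Hochberg. SE is the absolute value of edgeR's unshrunken log2 change over the square root of F. The log2 changes given are edgeR's shrunken ones. GC offsets are a lowess fit (span 0.3) of each library's log2 deviation from the gene's mean on transcript GC content. The edgeR fit was tested on simulated data, but no such test of the GC offsets is given here. GENCODE's GRCm38 annotation matched 53647 of 55335 symbols and gave positions, exon length and GC content. Other fits used DESeq2 1.42.0, RLE or upper-quartile factors, other filters, a replicate block, and leaving out each library.

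Members, roles and lists were chosen with earlier results of these data known. Values per library are given for up to 10 Rab genes per comparison and direction with the largest log2 change among those called, with separate groups and an average log2 CPM of 1 or more, and for 13 standard Rab genes whatever their result. Of the regulators, the 4 with the smallest p per direction are named, except that 1 is not reported here. Relatives of these genes, genes named in the other comparison and the other Rab genes given with values were chosen after their values were seen.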

Additional observations from a re-analysis of the deposited data

How the results depend on the processing

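For the Rab genes that the rule names in a comparison, 708 of the re-computed values kept their direction and call, 37 lost the call, 8 gained one and 12 changed sign. With GC offsets, and with the replicate block and GC offsets together, the sign turned for Rab3d with RANKL (0.097 and 0.098), and with CSRM617 for Rab17 (-0.18 and -0.18), Rab27b (0.30 and 0.30), Rab3d (-0.20 and -0.20) and Rab5a (0.11 and 0.11). Outside the rule in the CSRM617 comparison, the lower calls of Rab1a, Rab6a, Rab8b and Rab28 also turned with GC offsets, to 0.19, 0.12, 0.33 and 0.31. Rab25 with RANKL turned to 0.0095 under the block with offsets. Rab11b with RANKL turned to -0.049 without ENR control replicate 2, within a range of -0.049 to 0.065 when each library was left out. DESeq2 called 19 Rab genes higher and 3 lower with RANKL, against 22 and 5, and 9 higher and 18 lower with CSRM617, against 12 and 21. When each library was left out in turn, Rab genes called with RANKL ran from 18 to 21 higher and from 3 to 6 lower, with 3 lower without RANKL replicate 3, and with CSRM617 from 10 to 12 higher and from 18 to 21 lower. The cause of these shifts was not tested.

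Groups share the experiment numbers 1 to 3 in the labels, but same-numbered libraries did not deviate together: the correlations of their deviations from the group means were 0.0041, 0.057 and -0.0069 for RANKL with ENR control and -0.011, 0.013 and 0.0045 for RANKL+CSRM617 with RANKL II. Such values, over all genes and centred within groups of 3, cannot decide whether same-numbered libraries shared an experiment. With the replicate block, 20 Rab genes were called higher and 5 lower with RANKL, and 12 and 22 with CSRM617; of the genes named by the rule, the call of Rab4b with RANKL was lost (adjusted p = 0.0627) and no other call changed. In all, 14 Rab genes were not tested in the table with ENR control and 12 in the table with CSRM617.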

Other observations

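Several Rab genes of other cell types were listed at or near 0 in these organoids. Rab38, Rab39, Rab39b and Rab42 had 0 counts in all 12 libraries, and no library held more than 13 counts of any untested Rab gene in the table with ENR control or more than 6 in the table with CSRM617. Rab26, a Rab of secretory granules and outside the named genes, averaged 0.895 ± 0.33 CPM in RANKL libraries and 0.064 ± 0.11 CPM in ENR control libraries (SD, n = 3). These are 5, 8 and 9 counts against 1, 0 and 0, and Rab26 did not pass the filter on low counts. In the alternative fits that did test it, its adjusted p ran from 0.00129 to 0.0288. In the second table it was tested at 1.51 ± 0.12 CPM in RANKL+CSRM617 libraries and 0.963 ± 0.22 CPM in RANKL II libraries and was not called (adjusted p = 0.0567).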
